A study of Mus musculus with 6 samples.

Results

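The glucocorticoid receptor gene Nr3c1, the corticosterone-regenerating enzyme gene Hsd11b1 and 8 genes that glucocorticoids are known to induce were followed in whole mouse lung, to see whether stress hormone signalling varied between the lungs or with oral cadmium (Cd). They are 10 genes chosen by name, each measured by the 1 probe set paired with its symbol alone, among 22180 genes measured in this way. The male C57Bl6 mice numbered 3 in each group. All were acquired at 8 weeks of age and kept for 20 weeks, the Cd-treated mice with 10 mg/L CdCl2 in the drinking water and the controls without it, so that all were 28 weeks old. Each of the 6 arrays (Affymetrix Mouse Gene ST 2.0) held the RNA of 1 biological replicate, and each value is a log2 robust multiarray average (RMA), a background-corrected and normalized transcript abundance. The mice had been given ketamine/xylazine and an airway resistance measurement with methacholine before the lungs were taken, in both groups.

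Corticosterone, the main glucocorticoid of the mouse, is released by the adrenal gland with a daily rhythm and in response to handling and other stress. It binds the glucocorticoid receptor, which is held in the cytoplasm by heat shock proteins, enters the nucleus with the hormone and binds palindromic DNA elements or other transcription factors. In the lung this receptor drives maturation before birth and restrains inflammation, and inhaled or systemic glucocorticoids are used against asthma for this reason. Fkbp5, Tsc22d3, Zbtb16 and Klf9 are induced by glucocorticoids in many tissues, whereas Sgk1 and Errfi1 also respond to growth factors and Pdk4 and Angptl4 also to fasting and fatty acids.

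Control replicate 3 and Cd-treated replicate 3 stood apart from the other arrays in opposite directions. Over the 3861 genes with a mean level from 6 to 7, the median deviation from the mean of the 6 arrays was 0.40 on control replicate 3 and -0.29 on Cd-treated replicate 3, and it lay between -0.08 and 0.08 on the other 4 arrays. Over the 1471 genes from 7 to 9 these 2 arrays deviated by 0.50 and -0.43, and over the 7005 genes from 5 to 6 by 0.08 and -0.05. The median log2 difference between the groups (Cd-treated minus control) was -0.18 from 6 to 7 and -0.26 from 7 to 9, against -0.02 over all genes. Skeletal muscle markers, 9 genes, had a mean level of 8.39 on control replicate 3, against 5.05 to 5.37 on the other arrays. Markers of lung epithelium had a mean level over 7 genes from 9.50 to 10.22, and they differed in level. Sftpc read 11.99 to 12.57 and Scgb1a1 12.59 to 12.91, while Aqp5 read 7.22 to 8.07 and Hopx 5.13 to 6.57. Over all 41345 probe sets none passed an adjusted p of 0.05 from limma (Benjamini-Hochberg, smallest adjusted p = 0.992) or from the methods' t-test, while 831 (2.01%) and 1086 had an unadjusted p under 0.05.

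All 10 genes read lower on average in the Cd-treated lungs, with a median log2 difference of -0.37, where 52.8% of all genes had a negative difference. Over the 10950 genes within the span of mean levels of the 10, from 5.17 to 8.64, the median difference was -0.12. After cyclic loess, which levels the arrays at each intensity, 8 of the 10 differences were negative and those of Nr3c1 and Zbtb16 were 0.014 and 0.039, with a median of -0.34 over the 10 genes against -0.01 over all genes. Without control replicate 3 and Cd-treated replicate 3 the median over the 10 genes was -0.21. Pdk4 alone had an unadjusted limma p under 0.05, where 1.19% of all genes did (0.622% lower and 0.564% higher). For Fkbp5, Errfi1 and Pdk4 every Cd-treated array lay below every control array, which was so for 3.33% of all genes. Control replicate 3 was the highest array for 8 of the 10 genes, against 34.3% of all genes, and Cd-treated replicate 3 was the lowest for 6, against 26.2% of all genes. Cd-treated replicate 1 was the lowest for another 3, against 13.3%. These shares include genes dimmer than the 10. Over the 5888 genes with a mean level from 4 to 5, control replicate 3 and Cd-treated replicate 3 deviated by -0.15 and 0.14. The shares are therefore not those of genes of like level, and the same holds where shares of all genes are set beside a list below. After cyclic loess control replicate 3 was the highest for 5 of the 10, against 32.0% of all genes, and Cd-treated replicate 3 was still the lowest for 6, against 24.2%. The precision is limited by having 3 arrays a side, labelled as biological replicates with no more said of them. Each p sets a difference against the spread between these samples, and an exact permutation test cannot give a p below 0.1. The mice were caged in groups, and the cage of each is not given in the sources used here, so Cd and cage cannot be told apart. Since whole lung was measured, fewer cells of a type and less RNA per cell cannot be told apart.

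**Figure D1:**
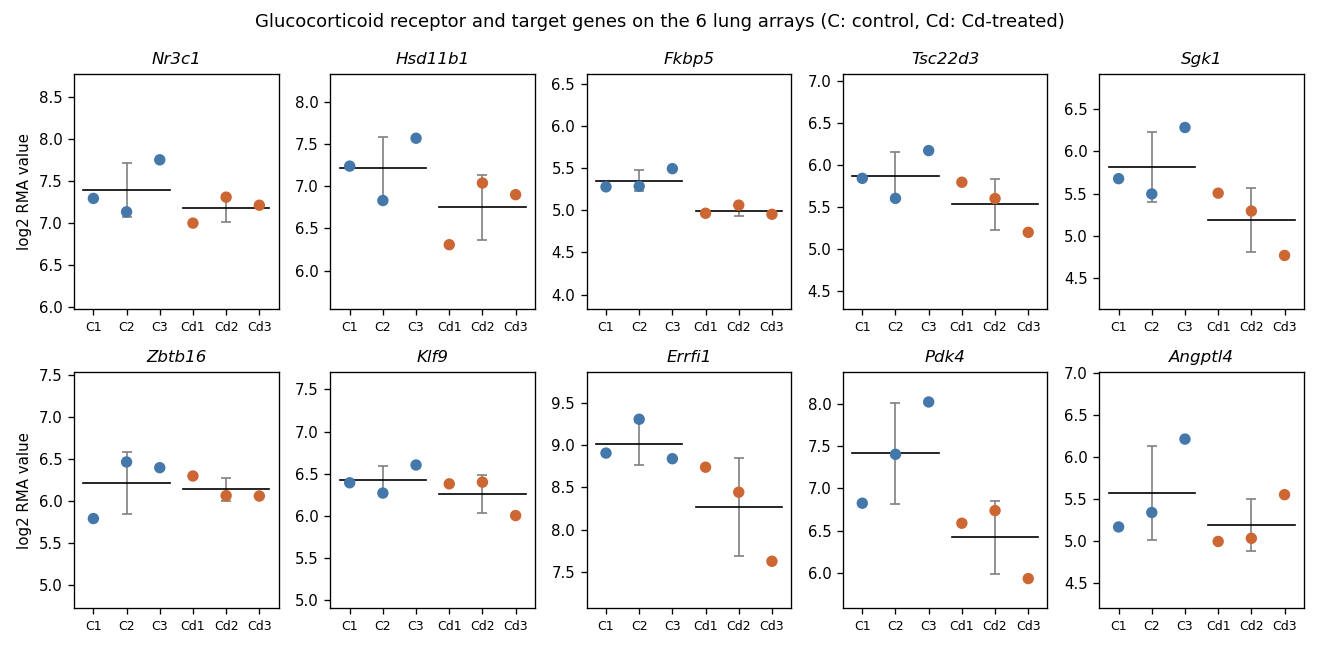
Log2 RMA value (vertical axes, each spanning 2.8 log2 units) of the 10 genes on the 3 control (C1 to C3, blue) and 3 Cd-treated arrays (Cd1 to Cd3, orange), with the group mean (line) and SD (bar, n = 3). Control replicate 3 is the highest point for 8 genes, and the groups are separate for Fkbp5, Errfi1 and Pdk4.

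Nr3c1, the receptor itself (probe set 17353985), read 7.29, 7.13 and 7.75 on control replicates 1 to 3 and 7.0, 7.31 and 7.21 on Cd-treated replicates 1 to 3. The groups overlapped, and control replicate 3 was the only array that stood off. The means were 7.39 ± 0.32 in control and 7.17 ± 0.16 in Cd-treated lungs (log2 RMA values, SD, n = 3 each), and the log2 difference was -0.22 (standard error 0.23, 95% interval -0.75 to 0.315, unadjusted limma p of 0.365). After cyclic loess the difference was 0.014 and the highest array was Cd-treated replicate 3, so the sign of the receptor's difference followed the scaling. These arrays give no difference in the receptor transcript beyond its spread between lungs, while the interval admits up to 0.75 lower on the log2 scale.

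Hsd11b1, the reductase that regenerates active corticosterone from its inert keto form within cells (probe set 17231229), read 7.24, 6.83 and 7.57 in control and 6.31, 7.04 and 6.90 in Cd-treated lungs. Cd-treated replicate 1 was the lowest array, and the other 2 Cd-treated arrays lay among the controls. The log2 difference was -0.47 (standard error 0.29, unadjusted limma p of 0.147), and it was -0.24 without Cd-treated replicate 1 and -0.25 after cyclic loess. Of 6 fibroblast markers all had a negative difference, against 52.8% of all genes. Of them 2, Dcn and Col1a2, were lower at an unadjusted limma p under 0.05 (log2 differences of -0.89 and -0.70), against 0.622% of all genes. The mean level of the 6 markers ran from 7.34 to 8.39 in control and from 7.26 to 7.46 in Cd-treated lungs. Their part in the result for Hsd11b1 was not tested.

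Fkbp5 encodes the co-chaperone that lowers the receptor's affinity for hormone and is itself induced by it, a short feedback loop (probe set 17342868). It read 5.28, 5.29 and 5.50 in control and 4.97, 5.06 and 4.95 in Cd-treated lungs. The 3 Cd-treated arrays lay within 0.11 of each other and all below the lowest control array. The means were 5.35 ± 0.12 and 4.99 ± 0.06 (log2 RMA values, SD, n = 3 each), a difference of -0.36 (standard error 0.17, 95% interval -0.77 to 0.05), that is 22.1% lower in the Cd-treated lungs. The unadjusted p was 0.0784 from limma and 0.0103 from the methods' t-test, the exact permutation p was 0.1 and the adjusted p was 0.992 from limma. The within-group SD of Fkbp5, 0.10, was among the smallest, with only 3.68% of genes below it, and limma widens so small an SD towards that of the other probe sets. Under the 10 alternatives that can change a difference it was from -0.40 to -0.24, and after cyclic loess the groups remained separate at -0.40. Over the 15 alternatives the unadjusted p of Fkbp5 ran from 0.0103 to 0.222, and it was under 0.05 in 2 of them.

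Tsc22d3, the glucocorticoid-induced leucine zipper protein of immune and epithelial cells (probe set 17544939), read 5.84, 5.60 and 6.17 in control and 5.79, 5.60 and 5.20 in Cd-treated lungs. Replicates 1 and 2 of the groups overlapped, and the difference rested on the high control replicate 3 and the low Cd-treated replicate 3. It was -0.34 (standard error 0.24, unadjusted limma p of 0.207), and -0.02 without these 2 arrays. Klf9, a Krüppel-like transcription factor (probe set 17358214), read 6.39, 6.27 and 6.60 in control and 6.38, 6.40 and 6.0 in Cd-treated lungs. Its difference of -0.16 (standard error 0.20, unadjusted limma p of 0.457) was -0.02 after cyclic loess, where the 6 arrays lay within 0.23 of each other. Zbtb16, the zinc finger repressor PLZF, strongly induced by glucocorticoids in human cells (probe set 17526707), read 5.79, 6.46 and 6.40 in control and 6.30, 6.06 and 6.06 in Cd-treated lungs. The control arrays enclosed all Cd-treated arrays, and control replicate 1 was the lowest of the 6. The difference was -0.08 (95% interval -0.64 to 0.48, unadjusted limma p of 0.755), and it turned to 0.039 after cyclic loess and 0.20 with array weights.

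Sgk1, the serum- and glucocorticoid-regulated kinase that keeps epithelial sodium channels at the cell surface (probe set 17232055), was the only one of the genes searched with a full receptor element near an annotated start. Promoter windows of 300 bases, from 250 before to 50 after the start, were available from RefSeq (GRCm38.p6) for 7 of the 10 genes, in 15 windows, and not for Nr3c1, Zbtb16 and Angptl4. The consensus palindrome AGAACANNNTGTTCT was searched on both strands and was found in 3 of 32851 windows of all genes (0.00913%), 1 of them at Sgk1. Either arm of it, TGTTCT, also searched on both strands and counted within the palindrome too, was found in 19.0% of all windows and in 4 of the 15, belonging to Sgk1 and Tsc22d3. The clock element CACGTG was found in 7.15% of all windows and in 1 window each of Fkbp5 and Sgk1, and the fatty acid receptor element AGGTCANAGGTCA in 0.0396% of all windows and in none of the 15, both strands searched. The Sgk1 window lies at chr10:21993640-21993939, plus strand, and the palindrome, shown in capitals, starts 189 bases before the start site and holds 2 of the 3 TGTTCT matches of this window. The Tsc22d3 window lies at chrX:140600473-140600772, minus strand, with its single TGTTCT match in capitals, shown for comparison because this classical target has no full palindrome in its 3 windows.
Sgk1: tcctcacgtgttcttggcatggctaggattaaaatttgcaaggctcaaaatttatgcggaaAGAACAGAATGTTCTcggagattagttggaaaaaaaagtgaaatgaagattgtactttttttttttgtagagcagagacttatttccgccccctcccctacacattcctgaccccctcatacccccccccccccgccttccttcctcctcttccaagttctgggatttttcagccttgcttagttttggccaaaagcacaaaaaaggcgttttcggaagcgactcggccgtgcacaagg
Tsc22d3: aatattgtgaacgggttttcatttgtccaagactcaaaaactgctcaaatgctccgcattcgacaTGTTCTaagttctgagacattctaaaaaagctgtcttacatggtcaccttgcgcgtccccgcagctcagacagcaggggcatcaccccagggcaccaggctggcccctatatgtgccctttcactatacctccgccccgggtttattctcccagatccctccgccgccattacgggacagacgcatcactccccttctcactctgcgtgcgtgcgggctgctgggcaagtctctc
A match is a description of the sequence and shows no binding in these lungs.

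The level of Sgk1 was 5.68, 5.50 and 6.28 in control and 5.50, 5.29 and 4.77 in Cd-treated lungs. Control replicate 2 and Cd-treated replicate 1 met at 5.50, control replicate 3 stood above and Cd-treated replicate 3 below all others. The log2 difference was -0.63 (standard error 0.29, 95% interval -1.33 to 0.06, unadjusted limma p of 0.0689), that is 35.5% lower. It was -0.62 after cyclic loess and -0.19 without control replicate 3 and Cd-treated replicate 3. Leaving out control replicate 2 brought the unadjusted limma p of Sgk1 to 0.0492, and leaving out Cd-treated replicate 1 brought it to 0.0493. It rose to 0.189 without control replicate 3, to 0.207 without Cd-treated replicate 3 and to 0.412 without both. Tsc22d3 and Sgk1 ranked the 6 arrays in the same order, with control replicates 3 and 1 first and Cd-treated replicate 3 last, although control replicate 2 and Cd-treated replicate 2 both read 5.60 for Tsc22d3.

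Errfi1 encodes MIG6, a feedback inhibitor of the epidermal growth factor receptor that is also a glucocorticoid target (probe set 17421972). It read 8.91, 9.31 and 8.84 in control and 8.74, 8.44 and 7.62 in Cd-treated lungs. All Cd-treated arrays lay below all controls, and Cd-treated replicate 3 lay far below the other 2. The means were 9.02 ± 0.25 and 8.27 ± 0.58 (log2 RMA values, SD, n = 3 each), a difference of -0.75 (standard error 0.32, unadjusted limma p of 0.0512, exact permutation p = 0.1), and the unadjusted p was 0.021 without Cd-treated replicate 1. Without Cd-treated replicate 3 the difference was -0.43 (unadjusted limma p of 0.136), and after cyclic loess it was -0.50 (0.140) and the groups overlapped. Over the 15 alternatives the unadjusted p of Errfi1 ran from 0.00981 to 0.146, and it was under 0.05 in 3 of them. Immediate early genes, which cells switch on within minutes of a stimulus, mostly shared the highest and lowest arrays of Errfi1 but not the order between them. Their median deviation was 0.23 on Cd-treated replicate 1, above the 0.06 and 0.01 on control replicates 1 and 3. Of 14 such genes, 13 were lowest on Cd-treated replicate 3 (26.2% of all genes) and 12 were highest on control replicate 2 (11.3% of all genes), the arrays on which Errfi1 was lowest and highest. Their part in the result for Errfi1 was not tested.

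Pdk4 encodes pyruvate dehydrogenase kinase 4, which spares glucose by turning off pyruvate oxidation and is induced by glucocorticoids and in fasting (probe set 17464654). It read 6.83, 7.41 and 8.03 in control and 6.59, 6.74 and 5.93 in Cd-treated lungs. The groups did not overlap, and the lowest control and highest Cd-treated arrays were 0.09 apart. The means were 7.42 ± 0.60 and 6.42 ± 0.43 (log2 RMA values, SD, n = 3 each), and the difference of -1.0 (standard error 0.36, 95% interval -1.85 to -0.15) put the Cd-treated lungs at 0.50 of the control level. The unadjusted p was 0.0273 from limma, the adjusted p was 0.992 and the exact permutation p was 0.1. Without control replicate 2, control replicate 3 or Cd-treated replicate 3 the unadjusted p rose to 0.0587, 0.0726 and 0.0901 from limma, with differences of -1.01, -0.70 and -0.76. Without both control replicate 3 and Cd-treated replicate 3 the difference was -0.45, and with array weights it was -0.24. Over the 15 alternatives the unadjusted p of Pdk4 ran from 0.00964 to 0.249, and it was under 0.05 in 8 of them. Muscle is rich in Pdk4, and muscle markers varied among these lungs. The skeletal muscle list was high on control replicate 3 alone. The 8 cardiac genes had a mean level from 8.27 to 8.97 in control and from 6.97 to 8.03 in Cd-treated lungs. Within the groups this level did not follow the order of Pdk4. The cardiac level was highest on control replicate 1 (8.97), the control array with the lowest Pdk4 (6.83). It was lowest on Cd-treated replicate 1 (6.97), whereas Pdk4 was lowest on Cd-treated replicate 3 (5.93). Of these 8, 4 were lower at an unadjusted limma p under 0.05, against 0.622% of all genes. The part of these muscle genes in the result for Pdk4 was not tested.

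Angptl4, an inhibitor of lipoprotein lipase (probe set 17343628), read 5.17, 5.34 and 6.21 in control and 4.99, 5.03 and 5.55 in Cd-treated lungs. Replicate 3 was the highest array of each group, and the groups overlapped. The difference was -0.38 (standard error 0.32, unadjusted limma p of 0.278), and it was -0.06 without control replicate 3. Angptl4 therefore did not share the low reading of Pdk4, Errfi1 and Sgk1 on Cd-treated replicate 3. Fat cell markers, whose part in this was not tested, had a mean level over 6 genes of 5.39 on control replicate 3 and from 5.11 to 5.74 on the others.

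**Figure D2:**
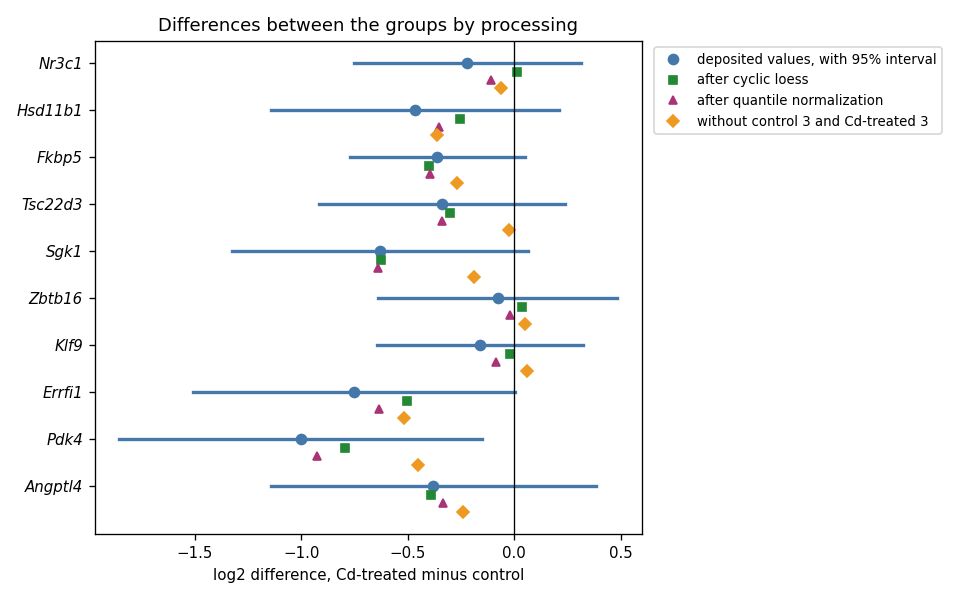
Log2 difference (Cd-treated minus control, horizontal axis) of each gene from the deposited values with its 95% interval from limma (circles and lines), after cyclic loess (squares), after quantile normalization (triangles), and without control replicate 3 and Cd-treated replicate 3 (diamonds). Only the interval of Pdk4 leaves out 0, and without these 2 arrays its difference is -0.45.

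The spread between lungs differed among the 10 genes. In the deposited values the range over the 6 arrays was 0.54 for Fkbp5, 0.60 for Klf9, 0.67 for Zbtb16 and 0.75 for Nr3c1, each below the median range of all genes, 0.76. It was 0.97 for Tsc22d3, 1.22 for Angptl4 and 1.26 for Hsd11b1. Errfi1, Sgk1 and Pdk4 ranged over 1.69, 1.52 and 2.10. The share of all genes with a smaller range was 26.2% for Fkbp5, 32.6% for Klf9, 40.3% for Zbtb16 and 48.8% for Nr3c1. It was 68.2% for Tsc22d3, 83.5% for Angptl4, 85.7% for Hsd11b1, 93.1% for Sgk1, 95.6% for Errfi1 and 98.2% for Pdk4. Thus 4 of the 10 genes lay below the median range and 6 above it, and no test was made of this split.

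**Figure D3:**
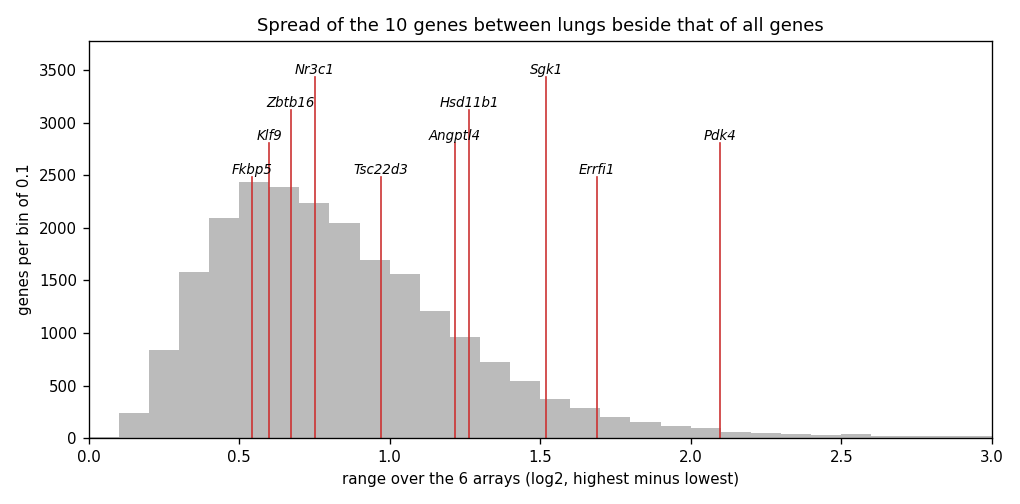
Number of genes (vertical axis) by the range of their deposited values over the 6 arrays (horizontal axis, log2, bins of 0.1), with the 10 genes marked by red lines. Fkbp5, Klf9, Zbtb16 and Nr3c1 lie below the median range of 0.76, and Pdk4 lies at 2.10. The axis ends at 3, beyond which 74 genes lie.

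The genes around the receptor were taken from lists drawn up from general knowledge. Of 30 other genes known to be induced by glucocorticoids, 2 were lower and none was higher at an unadjusted limma p under 0.05, against 0.622% and 0.564% of all genes. A negative difference was seen for 26, against 52.8% of all genes, and the median was -0.21. The 2 were Mt2, a metallothionein (log2 difference -1.16, unadjusted limma p of 0.0253), and Cdkn1a, the cell cycle inhibitor p21 (-0.94, 0.0311), followed by Sesn1, a stress-induced regulator of growth, which did not pass (-0.60, 0.079). The paper examined Mt2 as a gene of the response to Cd, and reports it lower on these arrays but not significantly lower by qPCR. On Cd-treated replicate 3 Mt2 read 7.42 and Cdkn1a 6.51, against 8.66 to 9.74 and 7.48 to 8.54 on the other arrays. That array was the lowest for 21 of the 30 genes, against 26.2% of all genes. Per1, a clock gene with a receptor element that responds sharply to handling in mice, was chosen after its values were seen. It read 7.73, 7.91 and 7.60 in control and 8.45, 7.56 and 7.14 in Cd-treated lungs, so that the Cd-treated arrays enclosed the controls (log2 difference -0.03, unadjusted limma p of 0.94). After cyclic loess 22 of the 30 differences were negative, against 52.0% of all genes, and the median was -0.17.

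None of 9 measured genes on a list of receptor complex and other chaperone genes passed an unadjusted limma p of 0.05. Hsp90ab1, also on that list, was not measured by a probe set of its own symbol. The median difference was -0.29, and after cyclic loess it was -0.07. Stip1, which hands the receptor from one heat shock protein to the next, and Hspa8, the constitutive chaperone of that relay, had the smallest p (differences of -0.57 and -0.39, unadjusted limma p of 0.0862 and 0.114), ahead of Hsp90b1 of the endoplasmic reticulum (-0.31). Of the 9 genes, 8 read lowest on Cd-treated replicate 3, these 3 among them, against 26.2% of all genes. That share is not one of genes of like level, since over the 1471 genes from 7 to 9 this array deviated by -0.43. None of 8 coactivators and corepressors passed either, with a median of -0.29, which was -0.05 after cyclic loess. Med1, Ncoa3 and Ep300 had the smallest p, at -0.48, -0.38 and -0.31. Of 9 genes of steroid supply, transport and the mineralocorticoid receptor none passed, 5 differences were positive and the median was 0.03. The drug efflux pump genes Abcb1b and Abcb1a, whose products export corticosteroids, had differences of -0.59 and -0.24, and Cyp11b1, the last enzyme of corticosterone synthesis, had 0.16.

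Among 16 inflammatory genes that glucocorticoids repress, 1 was lower and none higher at an unadjusted limma p under 0.05, against 0.622% and 0.564% of all genes. The median was -0.21. Vcam1, an endothelial adhesion molecule, was the one that was lower (-0.75, unadjusted limma p of 0.0377). It read 6.28, 6.33 and 7.25 in control and 5.75, 5.99 and 5.86 in Cd-treated lungs, with no overlap. The 5 endothelial markers all had a negative difference (median -0.38, none past an unadjusted limma p of 0.05), against 52.8% of all genes. All 5 were highest on control replicate 3, as Vcam1 was, against 34.3% of all genes. Their mean level ran from 6.86 to 8.35 in control and from 7.09 to 7.54 in Cd-treated lungs, and their part in the result for Vcam1 was not tested. The neutrophil chemokine gene Cxcl1 and the cytokine gene Il1a had differences of -0.77 and -0.54 and did not pass. The induced and the repressed genes thus had medians of the same sign. None of the 14 immediate early genes passed, at a median of -0.52. Jun, Ier3 and Ier2 had the smallest p (-0.83, -0.64 and -0.72), and Ier2 read 5.18 on Cd-treated replicate 3 against 6.65 to 7.03 on the other 5 arrays. The median of the list on that array was 0.93 below the gene means before cyclic loess and 0.71 below after it, where the 30 other glucocorticoid-induced genes had -0.50 and -0.20.

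Time of day and feeding are also known to set the level of several of the 10 genes. The day and hour at which each lung was taken are not given in the sources used here, so a difference in time of collection was not tested for the clock genes, Per1 or the 10 genes. Of 14 clock genes none passed and the median difference was -0.02, which turned to 0.05 after cyclic loess. Clock and Arntl, the activators of the clock, had differences of -0.59 and -0.60, and Dbp, an output of the clock that peaks late in the day, had 0.45 (unadjusted limma p of 0.0637, 0.132 and 0.0927). Dbp read 6.24, 6.01 and 6.67 in control and 6.59, 6.74 and 6.96 in Cd-treated lungs, and the groups overlapped at 1 control array. Of 12 genes of fasting and fatty acid use none passed, at a median of -0.17. Acadm and Acadl, enzymes of fatty acid oxidation, had -0.54 and -0.37, and the fatty acid binding protein gene Fabp4 had -1.57 with arrays from 5.68 to 10.28. Fabp4 was highest on control replicate 1 and lowest on Cd-treated replicate 1. The mean level of the fat cell markers was also highest and lowest there (5.74 and 5.11), and their part in the result for Fabp4 was not tested.

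**Figure D4:**
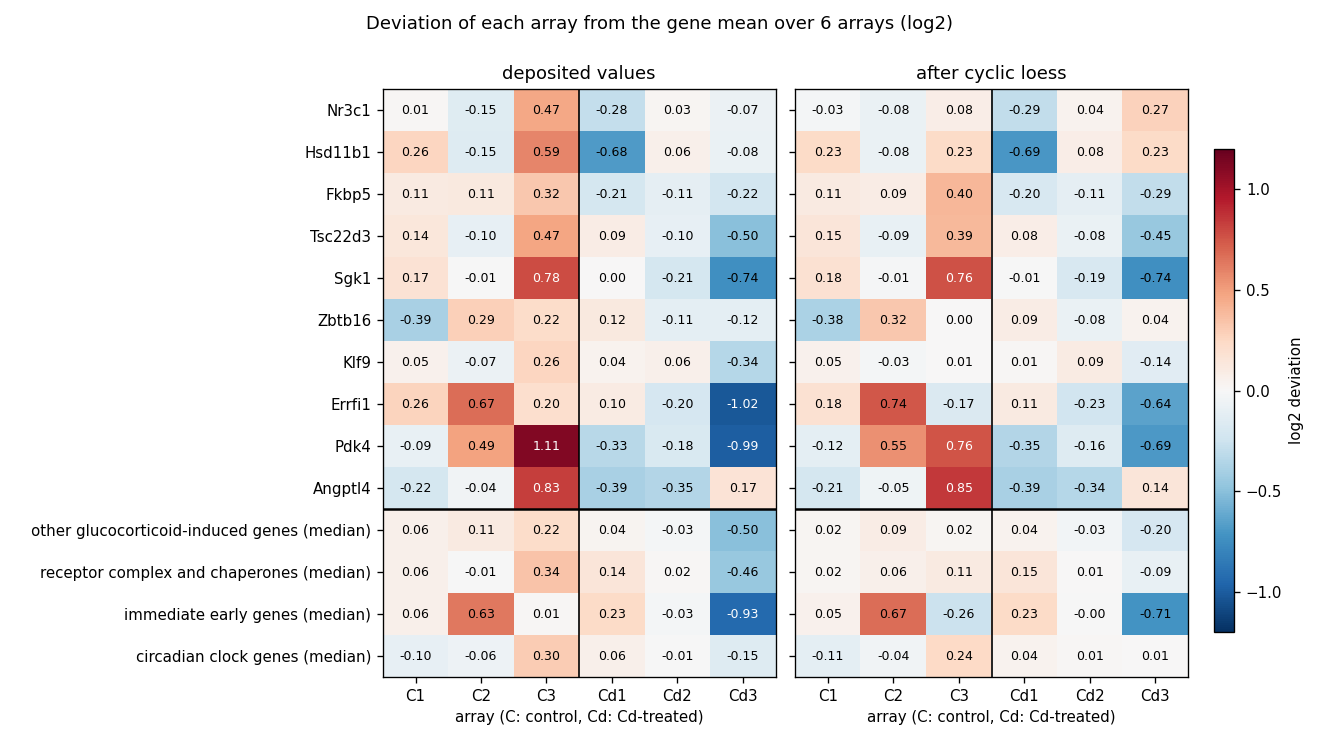
Deviation of each array (columns, C1 to C3 control, Cd1 to Cd3 Cd-treated) from the mean of the 6 arrays (log2, colour and printed number) for the 10 genes and, under the line, the median over 4 lists, in the deposited values (left) and after cyclic loess (right). The immediate early genes deviate by -0.93 on Cd-treated replicate 3 before cyclic loess and by -0.71 after it, while Klf9 and Zbtb16 become flat on control replicate 3.

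The arrays' mean deviation over Fkbp5, Tsc22d3, Zbtb16 and Klf9 was compared with that of every other gene, with Pearson's r over the 6 arrays as the measure of likeness and no test. The 5 genes most like it were Lypla1, a depalmitoylating enzyme, Ppp4r3a, a phosphatase subunit, Ccdc25, Tut7, an RNA uridylyltransferase, and Etf1, which ends translation, with r from 0.993 to 0.996. None of them is on a list of glucocorticoid genes used here. All 5 read highest on control replicate 3 and lowest on Cd-treated replicate 3, and 1320 of 22176 genes (5.95%) had an r over 0.9, so over 6 arrays this profile was shared by many genes. The averaged genes were not all alike. Fkbp5, Tsc22d3 and Klf9 had an r of 0.67 to 0.95 with each other, and Zbtb16 had an r of 0.22 to 0.28 with them.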

How the data were processed

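Whole-lung RNA (mirVana kit) from 6 mice, 3 per group, was amplified by NuGEN Ovation and hybridized to Affymetrix Mouse Gene ST 2.0 arrays. The authors converted the scans with oligo in R, and what they deposited is log2 RMA data (versions are not given in the sources used here). Of 41345 probe sets, 23521 were paired with 1 gene symbol in the platform annotation, and the probe set with the highest mean was used for each of 22180 genes. Groups were compared in R 4.3.3 with limma 3.58.1 (group as the only term, moderated test, Benjamini-Hochberg over all probe sets, 3.06 prior degrees of freedom), and the steps were tested on simulated data. The 10 genes and all lists were chosen with earlier results of these data known. Named genes were the 10, up to 3 of each other list with the smallest unadjusted p, and the 5 most alike. Per1 and the cell type markers named singly (Sftpc, Scgb1a1, Aqp5, Hopx, Dcn and Col1a2) fall outside this rule and were chosen after their values were seen. Lists came from general knowledge, and listed genes without a probe set of their own symbol were not analysed here. As alternatives, arrays were left out in turn, weighted, or normalized once more (quantile or cyclic loess), dim probe sets were dropped, probe sets of a gene were averaged, and the test was changed to the methods' t-test, to a fit with the replicate number as a block, or to a robust prior with a trend. Leaving out 2 arrays together was added after the data were examined.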

Additional observations from a re-analysis of the deposited data

How the results depend on the processing

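Of the 15 alternatives, the count of the 10 genes past an unadjusted p of 0.05, which was 1, became 0 with the replicate block and without control replicate 3 and Cd-treated replicate 3 together, and 3 with array weights (Fkbp5, Sgk1 and Errfi1) and with the averaged probe sets of each gene (Pdk4, Sgk1 and Errfi1, unchanged in difference but with a prior from fewer features). Leaving out 1 array gave 0 to 3. By the methods' t-test the 1 gene was Fkbp5 and not Pdk4. The count over all probe sets, 831, was 449 with the replicate block, 10119 with array weights (903 past an adjusted p of 0.05), 300 of the 20672 left by the filter on low values, 415 of 22180 with the mean of all probe sets, and 607 to 1650 when leaving out 1 array. Array weights gave 5.93 to control replicate 1 and 6.41 to Cd-treated replicate 2, against 0.23 to 0.60 for the other 4, so that fit rests mostly on 2 arrays. The median difference over the 10 genes, -0.37, was -0.21 without the 2 arrays together, -0.23 with array weights, -0.34 after cyclic loess, -0.35 after quantile normalization, and -0.49 to -0.24 when leaving out 1 array. The difference of Nr3c1 was 0.014 after cyclic loess. That of Zbtb16 was 0.039 after cyclic loess, 0.20 with array weights, 0.053 without the 2 arrays together and -0.29 to 0.046 when leaving out 1, and that of Klf9 was 0.059 without the 2 arrays. The other 7 genes had a negative difference under each of the 10 alternatives that can change one, the other 5 changing only the test or the features tested. The labels do not say that a replicate number pairs samples, and same-numbered replicates did not deviate together, with correlations across probe sets of -0.49, 0.07 and -0.51 for numbers 1, 2 and 3. Over the other pairs these ran from -0.36 to 0.56 (control replicate 3 with Cd-treated replicate 1), and whether any of the samples shared a batch was not tested.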
